A study of Homo sapiens with 6 samples.

Results

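Nuclear gene expression was compared between 1 culture of the human ovarian cancer line ES2 with R and 1 culture without any drug, called Control, both taken from a set of 6 RNA sequencing libraries. The members are nuclear genes that reached an FPKM of 1 in either library, where FPKM is the number of sequenced fragments relative to transcript length and library depth. The deposited table holds 33706 genes, of which 33669 are nuclear, and 11782 of those met the minimum, which left 21887 nuclear genes below it and set the 37 mitochondrial genes aside. The other libraries, T, G, TR and GR, serve as 2 further pairs that differ by R and share no library with the first, TR against T and GR against G. The labels give 1 library per group, so no difference between a pair has a replicate check and none is tested. A gene is called higher or lower when the log2 ratio of FPKM + 1 reaches 1, which is 2-fold, and this scale understates the change of weakly expressed genes.

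The labels leave the agent as the letter R, and the treatment text names a T-oligo, G4 and RHPS4 with an exposure of 7 days. RHPS4 is a ligand of G-quadruplexes, folded structures of guanine-rich DNA that occur at telomeres and in many promoters. Cells under stress commonly switch on immediate early genes, which are short, quickly transcribed and make unstable mRNAs, together with heat shock genes and genes of the integrated stress response, a programme that slows translation and raises the transcription factor ATF4. Stressed cells often also reduce the expression of genes for DNA replication, sterol synthesis and ribosome assembly. These statements are background and not results of these libraries.

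The Control library held 80880921 counts and the R library 83221578. Mitochondrial genes took 6.98% of counts in Control and 0.351% in R. The 100 nuclear genes with the most counts took 20.5% of counts in Control and 25.3% in R. Nuclear genes that reached 1 FPKM numbered 11327 in Control and 10619 in R. The title of each sample gives ES2, but the source name of R gives SKOV3, another ovarian cancer line, while that of Control gives ES2. By source name TR against T crosses the same divide and GR against G does not. ERBB2, which is amplified in SKOV3, stood at 0.233 FPKM in Control and 0.151 FPKM in R. Among genes that do not overlap another on the same strand, none reached 5 FPKM in one library and had 0 counts in the other. Of 9 ovarian epithelial cancer markers 3 passed 1 FPKM in each library, the keratins KRT7, KRT8 and KRT18, with 93.2, 15.2 and 89.9 FPKM in Control and 110, 27.5 and 121 FPKM in R. EPCAM and MUC16 had 0 counts in both libraries, and PAX8 had 128 counts in Control and 29 in R. The leukocyte marker PTPRC had 0 counts in both, and 6 leukocyte markers in the table summed to 58.2 FPKM in Control and 53.1 in R. In each library 2 of the 6 reached 1 FPKM, and the marker besides HLA-DRA made up most of both sums. HLA-DRA, a class II antigen presentation gene, rose from 2.91 to 8.45 FPKM (log2 ratio 1.27), and its part in other results was not tested.

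With R, 355 genes (3.01%) were at least 2-fold higher and 841 (7.14%) at least 2-fold lower, together 10.2% of the members, and 10586 lay within 2-fold. The median log2 ratio over all members was -0.12 with an SD across genes of 0.63. The lower side held more genes, but the higher side reached further: 66 genes were at least 4-fold higher and 49 at least 4-fold lower, and 13 against 5 passed 8-fold. Rescaling by the median ratio moved the median to 0.01 and the split to 476 higher and 605 lower. TMM-scaled CPM, where the pseudocount is added to CPM and the unit changes too, moved it to 0.05, with 683 higher and 1062 lower. With mitochondrial counts left out of the scale it was -0.21, with 303 higher and 1045 lower. With a pseudocount of 5, which weighs low genes less, the lower side no longer held more genes, with 126 higher and 120 lower. At the threshold, ATP6V0B at 20.8 FPKM in Control and 42.6 in R was just inside the higher group and TMA7 at 16.5 and 34.0 just outside. ACBD6 at 6.81 and 2.90 FPKM was just inside the lower group and ZBED4 at 6.90 and 2.95 just outside. In bulk RNA a smaller number of cells of one kind and less RNA per cell cannot be told apart.

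**Figure D1:**
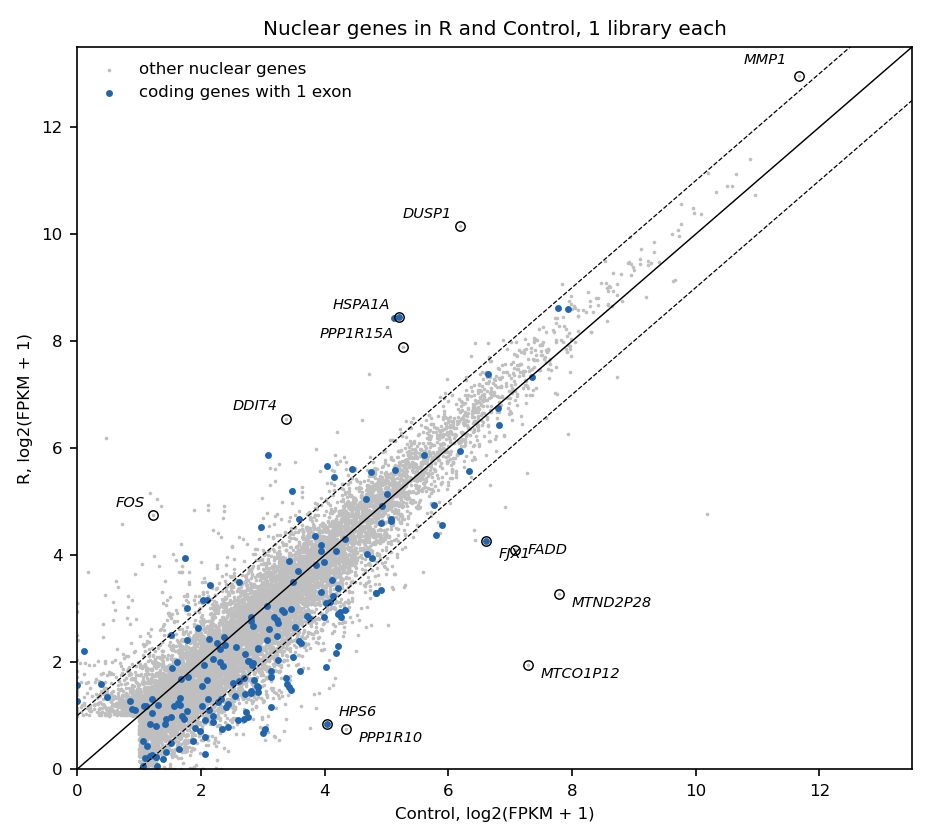
Each point is one of the 11782 nuclear genes, with log2(FPKM + 1) in Control on the horizontal axis and in R on the vertical axis, 1 library each, and the dashed lines mark 2-fold. Circled genes are named, blue points are coding genes with 1 exon, and more points lie below the lower line (841) than above the upper one (355).

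Among genes without a near-identical copy and without overlap with another gene on the same strand, the highest ratio belonged to DUSP1, a nuclear phosphatase that switches off MAP kinases and is itself an immediate early gene (chromosome 5, 172768096 to 172771195, minus strand). It took 72.0, 1133, 192, 1278, 79.0 and 130 FPKM in Control, R, T, TR, G and GR. R and TR therefore stood far above the other libraries, and GR lay nearer to G than to them. The FPKM of R was 15.7 times that of Control. The ratio of counts, scaled by the library totals, had a 95% exact interval of 15.5 to 16.1, which covers counting error only. FOS, a component of the transcription factor AP-1 (chromosome 14, 75278826 to 75282230, plus strand), took 1.33, 25.8, 0.594, 21.1, 1.35 and 2.29 FPKM in Control, R, T, TR, G and GR. Again R and TR were high and GR was close to the libraries without R. PPP1R15A, which guides a phosphatase to the initiation factor eIF2 and so restarts translation after stress (chromosome 19, 48872212 to 48876058, plus strand), took 37.3, 238, 79.6, 205, 36.1 and 78.3 FPKM. Here T and GR held an intermediate place.

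The promoters of these 3 genes are shown because all carry sequence elements of rapidly induced genes, a TATA box and the core of the cAMP response element, within 250 bases before and 50 after the start (RefSeq, GRCh38.p14). Capitals mark TGACG, that core, and TATAAA, on either strand. The windows are chr5:172771146-172771445 on the minus strand for DUSP1, chr19:48872171-48872470 on the plus strand for PPP1R15A and chr14:75278578-75278877 on the plus strand for FOS.
DUSP1: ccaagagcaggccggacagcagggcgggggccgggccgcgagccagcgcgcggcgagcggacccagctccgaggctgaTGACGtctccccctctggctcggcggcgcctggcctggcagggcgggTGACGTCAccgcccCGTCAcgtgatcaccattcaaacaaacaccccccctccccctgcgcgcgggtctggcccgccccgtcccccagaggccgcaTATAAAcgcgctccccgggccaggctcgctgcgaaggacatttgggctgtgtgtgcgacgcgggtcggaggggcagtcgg
PPP1R15A: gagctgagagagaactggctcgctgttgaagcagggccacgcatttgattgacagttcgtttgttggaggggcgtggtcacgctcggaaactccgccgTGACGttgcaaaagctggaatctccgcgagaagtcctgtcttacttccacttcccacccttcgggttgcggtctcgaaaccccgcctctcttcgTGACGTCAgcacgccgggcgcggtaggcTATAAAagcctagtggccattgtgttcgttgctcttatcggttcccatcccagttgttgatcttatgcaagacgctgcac
FOS: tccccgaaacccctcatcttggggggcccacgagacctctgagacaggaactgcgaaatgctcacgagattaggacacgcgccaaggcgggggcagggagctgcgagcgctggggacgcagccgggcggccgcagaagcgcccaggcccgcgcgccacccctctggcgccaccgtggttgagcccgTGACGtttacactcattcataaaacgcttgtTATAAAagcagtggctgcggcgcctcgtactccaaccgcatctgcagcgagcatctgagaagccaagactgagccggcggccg
A promoter in the RefSeq table was matched by symbol for 8758 of the members. The full palindromic cAMP response element, TGACGTCA, which contains the core on both strands, was found in DUSP1, PPP1R15A and AVPI1. It occurred in 1.98% of all 27305 promoters, in 3.51% of the members' promoters, in 5.05% of 198 from genes at least 2-fold higher and in 2.86% of 594 from genes at least 2-fold lower. In promoters of genes at least 4-fold higher and lower it was 8.57% of 35 and 9.38% of 32. The core alone occurred in 25.0% of all promoters, 36.1% of the members' promoters, 35.4% of the 198 and 33.7% of the 594. TATAAA was searched for after the genes had been seen. It occurred in 12.0% of all promoters, 5.23% of the members' promoters, 17.2% of the 198 and 6.73% of the 594. Among 35 promoters of genes at least 4-fold higher 11 held it (31.4%). Another of the 14 motifs searched on both strands, the antioxidant response element TGACNNNGC, was also found in 11 of these 35, against 13.6% of all promoters and 15.5% of the members' promoters. A G-quadruplex motif, 4 runs of at least 3 guanines with loops of 1 to 7 bases on either strand, occurred in 24.1% of all promoters, 34.0% of the members' promoters, 33.8% of the 198 and 30.3% of the 594. These matches describe letters in a fixed window and were not tested.

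Of 27 immediate early and AP-1 genes 11 rose and 1 fell, with a median log2 ratio of 0.63. Over all members 3.01% were higher and 7.14% lower, shares to set beside every list count that follows. ZFP36, whose protein binds AU-rich elements and speeds the decay of mRNAs, rose from 2.70 to 27.5 FPKM (log2 ratio 2.95). PER1, a clock gene that is also induced as an immediate early gene, rose from 4.17 to 29.2 FPKM (2.55), with some uncertainty because it overlaps another gene. The exception was EGR1, a zinc finger factor usually induced together with FOS. It took 21.8, 3.63, 26.4, 6.49, 21.9 and 14.9 FPKM in Control, R, T, TR, G and GR, so it was lowest in R and TR, the libraries in which FOS was highest. Its log2 ratio was -2.30 in R against Control and -1.87 in TR against T. In the MAP kinase feedback list, 4 of 18 genes rose and 2 fell, against 3.01% higher and 7.14% lower over all members. Besides DUSP1, the phosphatases DUSP10 (3.01 to 13.7 FPKM, log2 ratio 1.88) and DUSP5 (61.9 to 155 FPKM, 1.31) rose, while SPRED1, an inhibitor of the RAS pathway, fell from 14.0 to 4.52 FPKM (-1.44).

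Stress genes moved in both directions. In the integrated stress response list 4 of 30 genes rose, where 3.01% of all members were higher. A further 3 fell, a share near the 7.14% of all members that were lower. The list median was 0.004, with 15 ratios above 0 and 15 below. Those that rose with DDIT4, an inhibitor of mTORC1, were PPP1R15A, the secreted glycoprotein STC2 and the cytokine GDF15, the last of which overlaps another gene. DDIT4 (chromosome 10, 72273919 to 72276036, plus strand) took 9.39, 92.7, 57.5, 98.6, 22.0 and 27.8 FPKM in Control, R, T, TR, G and GR. T alone was thus already high, and the log2 ratio was 3.17 in R against Control but 0.77 in TR against T. STC2 rose from 17.3 to 77.4 FPKM. The 3 that fell, named after their values were seen, were CHAC1, which degrades glutathione (5.44 to 0.951 FPKM, -1.72), the pseudokinase TRIB3 (20.8 to 5.69 FPKM, -1.70) and SESN2, a leucine sensor (9.55 to 3.11 FPKM, -1.36). CHAC1, TRIB3 and SESN2 are known as targets of ATF4, but they are the fallers of a list in which 4 other genes rose. They do not show how ATF4 targets moved as a set. In TR against T the log2 ratios of CHAC1, TRIB3 and SESN2 were -3.29, -2.62 and -2.42.

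Of 21 cytosolic heat shock genes 3 rose, where 3.01% of all members were higher, and none fell. The risers are all inducible members of the HSP70 family. HSPA1A took 35.8, 350, 15.7, 267, 34.2 and 36.0 FPKM in Control, R, T, TR, G and GR. G and GR were at the level of Control, and R and TR stood well above. HSPA1B, a near-identical neighbour whose reads could be exchanged with those of HSPA1A, rose from 34.0 to 344 FPKM. HSPA6, a strictly inducible HSP70, rose from 15 counts to 759. At 0.0732 FPKM in Control it met the minimum only through R, so it adds no weight to the count of risers. The fourth of the named examples, HSF1, which encodes the heat shock factor itself, stood at 23.0 and 37.2 FPKM (0.67). In the endoplasmic reticulum, 1 of 19 chaperone genes rose, against 3.01% of all members, the co-chaperone DNAJB9 (3.35 to 8.40 FPKM, 1.11). The chaperone HSPA5 stood at 102 FPKM in Control and 196 in R (0.94).

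The transcription factors NR1D1, HES1 and CEBPD were among the genes that rose furthest. NR1D1, the clock repressor REV-ERB alpha, took 3.32, 27.8, 3.19, 23.7, 2.38 and 6.46 FPKM in Control, R, T, TR, G and GR, higher with R in each pair. Of 16 clock genes 4 rose and 1 fell, against 3.01% higher and 7.14% lower over all members. NFIL3, a bZIP repressor, rose from 8.13 to 48.1 FPKM (2.43), and BHLHE41, a repressor of clock genes, fell from 8.01 to 1.87 FPKM (-1.65). HES1, a Notch target and repressor, rose from 0.901 to 11.5 FPKM (2.72) and met the minimum only through R. HES7, HES4 and ID3 rose with it by 2.02, 1.32 and 1.27 on the log2 scale. These were 4 of 13 genes in the list of Notch, HES and ID genes, against 3.01% of all members. HES1 adds no weight to this count, which was not split by level in Control. In that list 7 genes had a negative ratio. CEBPD, a factor of the acute phase response, rose from 7.50 to 57.2 FPKM (2.78), the only 1 of 5 genes in the CEBP list, of which 3 had a negative ratio. GADD45B, a stress sensor that activates MAP kinase cascades, took 25.2 FPKM in Control and 166 in R (2.68). AVPI1, a vasopressin-induced gene, took 7.69 and 48.6 FPKM (2.51).

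Some secreted matrix enzymes rose as well. Of 19 matrix proteases and inhibitors 5 rose, where 3.01% of all members were higher, and none fell, with a median of 0.68. MMP1, interstitial collagenase and the most abundant nuclear gene of Control, took 3263, 7919, 3672, 6090, 2662 and 4406 FPKM in Control, R, T, TR, G and GR. In each pair the library with R was higher, and the log2 ratios were 1.28, 0.73 and 0.73. MMP3, stromelysin, rose from 1.49 to 12.8 FPKM (2.47), the protease inhibitor SERPINE2 from 1.79 to 6.36 FPKM (1.40) and the gelatinase MMP2, which overlaps another gene, from 14.1 to 46.7 FPKM (1.66). The collagen gene COL1A1, also a fibroblast marker, went the other way, from 85.7 to 18.6 FPKM (-2.15). Fibroblast markers summed to 89.6 FPKM in Control and 24.0 in R, with 3 of 8 at 0 in each library, and endothelial markers to 19.6 and 6.19 FPKM, nearly all of it CDH5 (19.2 and 5.75 FPKM). COL1A1 makes up most of the first sum, and its part in other results was not tested.

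**Figure D2:**
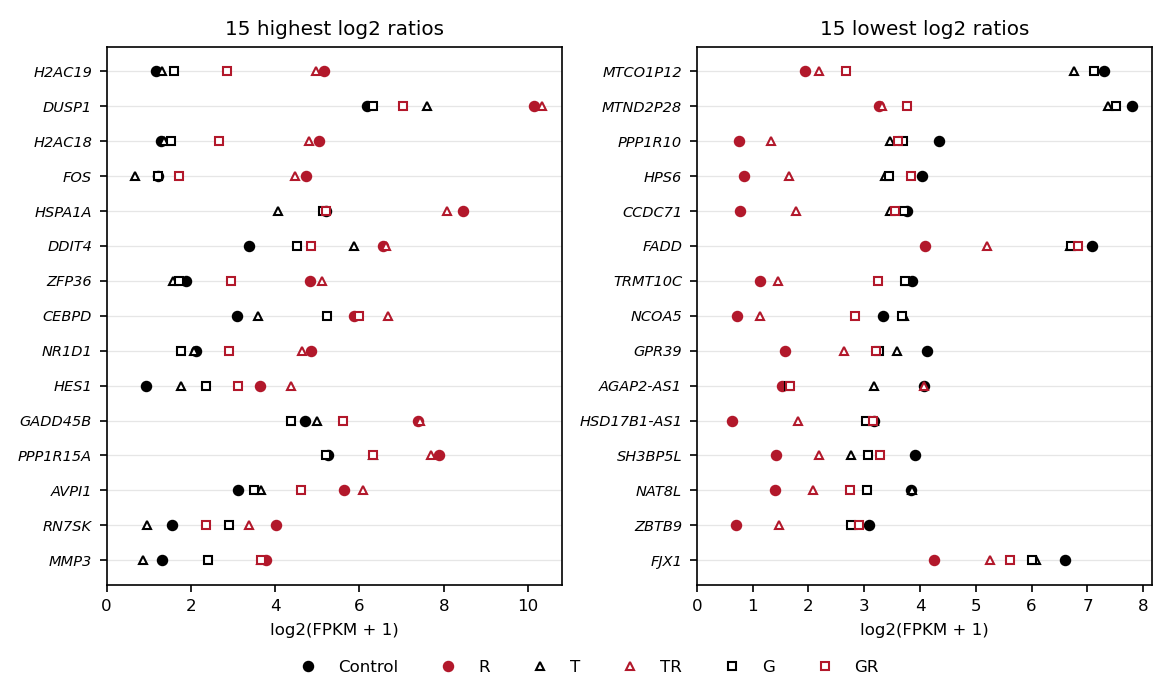
Level of the genes with the 15 highest (left) and 15 lowest (right) log2 ratios of R against Control, as log2(FPKM + 1) on the horizontal axis, in each of the 6 libraries, 1 symbol per library. Red symbols are libraries with R, and for most genes R and TR lie far from the black symbols while GR lies nearer to them.

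Histone mRNAs of the replication-dependent kind normally end in a stem loop without a poly(A) tail, and the libraries were made from oligo(dT)-purified RNA. The table holds 62 such genes. The minimum was met by 11 of them and 10 rose, but most were below 1 FPKM in Control and could pass only through R, so the count carries no weight. H2AC19 took 1.26 FPKM in Control and 34.8 in R, and H2AC18, a near-identical copy, 1.45 and 32.2 FPKM, so their reads are uncertain. H1-2, a linker histone, took 2.33, 14.3, 1.06, 13.1, 2.83 and 7.20 FPKM in Control, R, T, TR, G and GR, higher with R in each pair. Other RNAs without a poly(A) tail moved beside them. RN7SK, the 7SK RNA that holds the elongation factor P-TEFb inactive, rose from 55 to 446 counts (log2 ratio 2.48 in FPKM + 1, and -0.53 in GR against G). Of 44 small nucleolar RNAs that met the minimum 23 were higher, but 11 of these 23 were below 1 FPKM in Control and could pass only through R, so this count carries no weight either. Of the 24 that reached 1 FPKM in Control 12 were higher and none lower. Most of these lie inside host genes on the same strand, so their counts are uncertain. RN7SL1, the RNA of the signal recognition particle, went from 126 to 99 counts. For these RNAs amount and polyadenylation cannot be told apart.

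Among the genes that fell furthest were nuclear copies of mitochondrial genes on chromosome 1. MTCO1P12 (631074 to 632616) took 156, 2.83, 108, 3.58, 138 and 5.40 FPKM in Control, R, T, TR, G and GR, and MTND2P28 (629640 to 630683) took 222 FPKM in Control and 8.61 in R. Both were low in all libraries with R. Their reads cannot be told apart with certainty from those of the mitochondrial genes they copy, whose share of counts is given above.

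Of the other genes with the lowest ratios, PPP1R10, which anchors protein phosphatase 1 in the nucleus (chromosome 6, 30600413 to 30617244, minus strand), took 19.3, 0.680, 10.1, 1.51, 11.9 and 11.1 FPKM in Control, R, T, TR, G and GR. It was 28.4-fold lower in R than in Control and showed a log2 ratio of -0.08 in GR against G. FADD, the adaptor that links death receptors to caspase 8, took 134, 16.1, 102, 35.6, 103 and 112 FPKM, so GR was in the range of the libraries without R. In the death receptor list 2 of 10 genes fell and 2 rose, against 7.14% lower and 3.01% higher over all members. CASP8, which overlaps another gene, fell from 4.79 to 0.924 FPKM (-1.59), and the receptor TNFRSF21 rose from 8.94 to 30.9 FPKM (1.68) beside the decoy receptor TNFRSF6B, another overlapping gene (23.3 to 91.5 FPKM, 1.93). HPS6, a subunit of the BLOC-2 complex for lysosome-related organelles, took 15.4, 0.793, 9.40, 2.14, 9.89 and 13.3 FPKM. TRMT10C, a subunit of mitochondrial RNase P, took 13.5, 1.21, 12.5, 1.74, 12.2 and 8.52 FPKM, and NCOA5, a coactivator of nuclear receptors, 9.11 FPKM in Control and 0.641 in R. The rest of these 15, CCDC71, GPR39, AGAP2-AS1, HSD17B1-AS1, SH3BP5L, NAT8L, ZBTB9 and FJX1, had log2 ratios from -2.99 to -2.35. AGAP2-AS1, an antisense RNA, was the exception across pairs, with -2.56 in R against Control and 0.89 in TR against T.

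A larger share of coding genes with a single exon than of other coding genes was lower, a difference that was not tested. Exons were counted in 1 transcript a gene of GENCODE v29, for 10286 coding members, of which 2.41% were at least 2-fold higher and 6.74% at least 2-fold lower. Of 192 genes with 1 exon 65 were lower (33.9%), with a median log2 ratio of -0.61, against 628 of 10094 with 2 or more exons (6.22%). Some of the 65, such as HPS6, DDX28 and PRMT6 (0.793, 0.596 and 0.683 FPKM in R), met the minimum only through Control. Those add no weight, and PPP1R10 (0.680 FPKM in R) is such a gene among the others. With an FPKM of at least 5 in either library, 35.0% of 117 genes with 1 exon were lower, against 7.35% of all 6694 nuclear genes. That minimum, too, could be met through Control alone. The share was smaller with more exons, at 16.8% of 447 genes with 2 exons, 11.1% of 613 with 3 and 6.09% of 1444 with 4 to 5, and beyond that it lay between 5.43% and 4.90%. Genes with 1 exon were also higher more often, 18 of them (9.38%) against 2.28% of the others. Of these 18, HSPA6 and the histones H2BC8, H2AC8 and H2BC21 were below 1 FPKM in Control. They could pass only through R and add no weight. As counted here, both tails were wider for genes with few exons. In TR against T, where 10.3% of coding genes were lower, 19.8% of those with 1 exon and 10.1% of the others were. In GR against G, where 0.865% were lower, the shares were 0.521% and 0.872%.

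**Figure D3:**
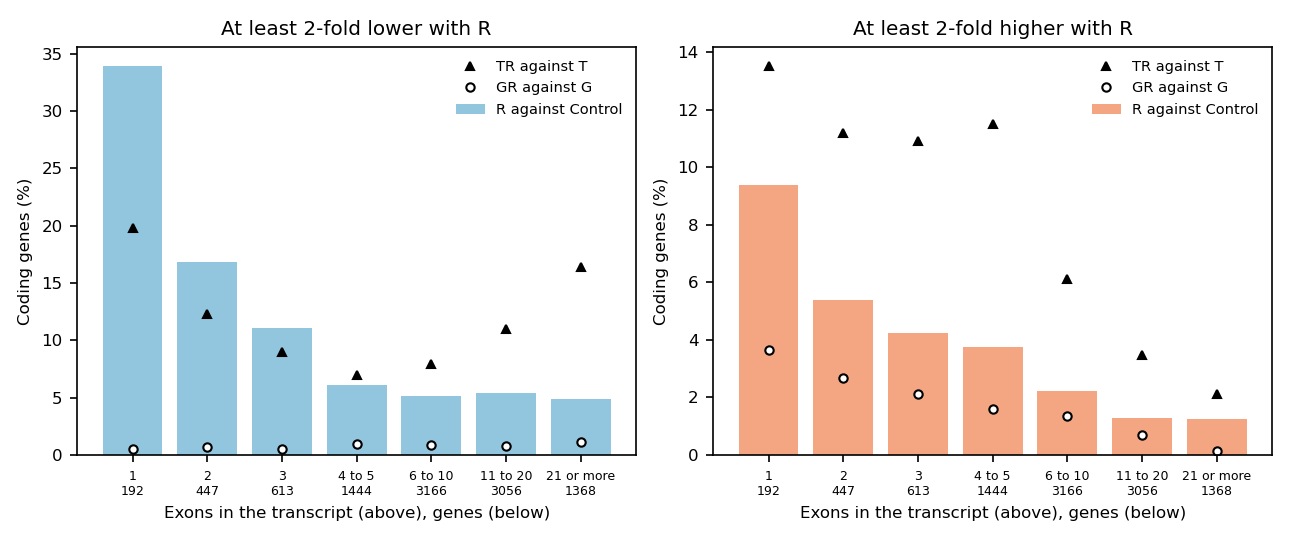
Share of coding genes at least 2-fold lower (left) and higher (right) by number of exons, in percent, with the number of genes under each class. Bars are R against Control, triangles TR against T and circles GR against G, and the lower share in R against Control drops from 33.9% with 1 exon to 4.90% with 21 or more.

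The single-exon genes that fell code for proteins of many kinds. With HPS6 and FJX1, which encodes a secreted protein of the Four-jointed family (96.4 to 18.1 FPKM), they included the following, named after their values were seen. DDX28, a helicase of mitochondrial ribosome assembly, fell from 6.99 to 0.596 FPKM, and PRMT6, an arginine methyltransferase for histone H3, from 7.25 to 0.683 FPKM. The Golgi glycosyltransferases B3GALT6 and MGAT2 fell from 15.2 to 2.76 FPKM and from 17.1 to 3.49 FPKM. DOLK, which makes dolichol phosphate for glycosylation, fell from 7.76 to 1.23 FPKM, and TBCC, a tubulin folding cofactor, from 11.2 to 2.57 FPKM. Those that rose included stress, immediate early and chromatin genes, with HSPA1A, HSPA1B, HSPA6, CEBPD, JUNB, IER5, IER5L, RHOB and H1-2 among the 18. Without the 6 replication-dependent histones, 34.9% of 186 genes with 1 exon were lower and 6.99% higher. HSPA6, which met the minimum only through R, remains among the higher ones.

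The larger share of lower genes was seen at each level of expression and of transcript length. The coding genes were split into 5 equal groups by mean expression over the 6 libraries, R and Control included. From the lowest group to the highest, 31.2%, 51.1%, 36.1%, 29.6% and 16.7% of genes with 1 exon were lower, against 7.01%, 8.90%, 7.97%, 5.02% and 2.23% of the others. In 5 groups by transcript length it was 26.4%, 38.3%, 45.5%, 32.4% and 27.3% from shortest to longest, against 3.39% to 8.02%. In the group of highest expression, 19.4% of genes with 1 exon were higher, against 3.71% of the others. There the median log2 ratio was -0.03 for genes with 1 exon and 0.16 for the others. Genes with several exons but a single coding exon, 319 in number, were also lower often, in 18.5%. Where every basic transcript of the gene has 1 exon, a definition added after the data were seen, 36.0% of 164 genes were lower. Genes with 1 exon are a small class, 192 of 10286, and account for 65 of the 693 coding genes that fell.

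**Figure D4:**
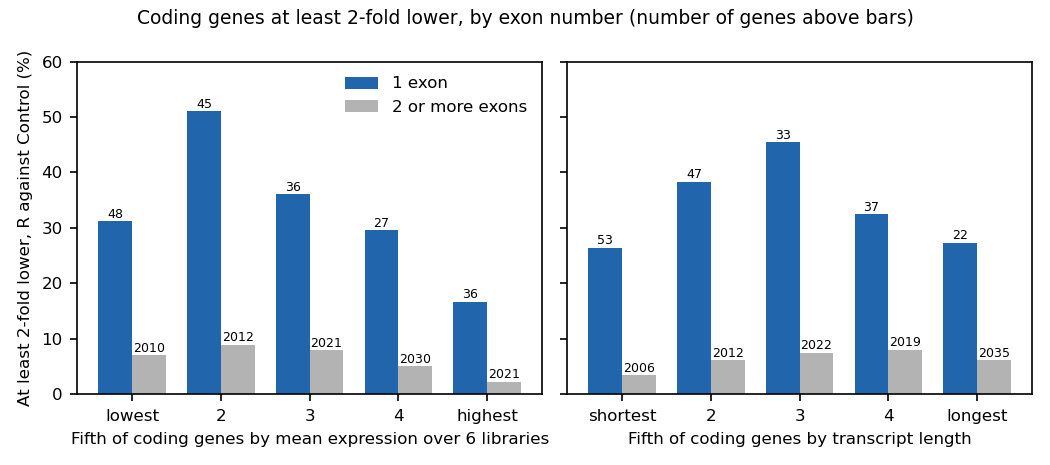
Percent of coding genes at least 2-fold lower in R than in Control, for genes with 1 exon (blue) and with 2 or more (grey), in 5 equal groups of mean expression (left) and of transcript length (right), with the number of genes above each bar. The blue bar is higher than the grey bar in every group, and the widest gap by expression is 51.1% against 8.90%.

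Length and base composition went with the ratio to different degrees. Across the coding members, which are not independent replicates, the Spearman correlation of the log2 ratio with transcript length was -0.21 and with GC content 0.02. Of 5 groups by length, the shortest had a median of 0.10, with 83 genes higher and 82 lower, and the longest one of -0.27, with 17 and 130. In TR against T and GR against G the correlation with GC content was 0.48 and 0.51, so those pairs carry a trend with base composition that R against Control lacks. Its part in the differences between the pairs was not tested.

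Some genes of DNA replication fell. Of 43 S phase genes 7 fell, where 7.14% of all members were lower, and none rose, with a median of -0.60 against -0.12 for all members, and between -0.70 and -0.45 under the other scalings. FEN1, the flap endonuclease of Okazaki fragments, which overlaps another gene, took 31.6, 5.47, 8.73, 8.74, 37.9 and 25.5 FPKM in Control, R, T, TR, G and GR. T without R was thus already low. POLE2, a polymerase epsilon subunit, fell from 4.37 to 0.941 FPKM (-1.47), the histone chaperone CHAF1A from 12.2 to 4.03 FPKM (-1.40) and GINS1, part of the replicative helicase, from 6.21 to 1.76 FPKM (-1.38). TYMS, thymidylate synthase, stood at 98.8 and 85.6 FPKM (-0.20), so not every S phase gene was lower by a large factor. Of 46 G2/M and mitosis genes 3 fell, a share near the 7.14% of all members, namely the separase gene ESPL1 (-1.74), ASPM, which overlaps another gene (-1.19), and MKI67 (-1.13). Their median was -0.03, and its sign changed with the scaling.

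Of the CDK inhibitors, CDKN2D rose from 4.68 to 16.9 FPKM (1.66) and CDKN1B from 3.12 to 8.65 FPKM (1.23). These were 2 of 7 genes, against 3.01% of all members. CDKN1A stood at 1.49 and 3.30 FPKM (0.79). In the DNA damage and homologous recombination list 2 of 33 genes fell, a share near the 7.14% of all members, and none rose. These were H2AX (58.7 to 22.7 FPKM, -1.33) and XRCC2 (1.86 to 0.397 FPKM, -1.03), and the list median was -0.50. Of 19 telomere protein genes 2 fell, a share near the 7.14% of all members, and both lay close to the threshold. These were WRAP53, a telomerase cofactor (5.08 to 2.02 FPKM, -1.01), and TEN1, an overlapping gene (-1.04). TERT, the catalytic subunit of telomerase, was below the minimum at 0.899 and 0.406 FPKM and is no member. None of 17 G-quadruplex helicase genes passed 2-fold, with a median of -0.47, and DDX11 came closest (8.08 to 3.67 FPKM, -0.96). Of 15 genes known for G-quadruplexes in their promoters only HIF1A, which overlaps another gene, passed 2-fold (76.9 to 159 FPKM, 1.04), and MYC stood at 59.9 and 94.6 FPKM (0.65).

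Lipid synthesis genes were among those that fell. Of 29 genes of cholesterol synthesis and uptake and fatty acid synthesis 7 fell, where 7.14% of all members were lower, and none rose, with a median of -0.75, between -0.84 and -0.54 under the other scalings. FASN, fatty acid synthase, took 154, 45.4, 107, 50.7, 134 and 65.4 FPKM in Control, R, T, TR, G and GR, lower with R in each pair. Its activator SREBF1, which overlaps another gene, fell from 14.5 to 3.69 FPKM (-1.72). SQLE, squalene epoxidase, fell from 28.3 to 10.0 FPKM (-1.41).

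Some nuclear genes that serve mitochondrial gene expression fell, and the nuclear subunits of the respiratory chain stayed within 2-fold. In the list for mitochondrial DNA replication, transcription and RNA processing 7 of 33 genes fell, where 7.14% of all members were lower. None rose, and the median was -0.49. After TRMT10C the lowest were MTERF3, a transcription factor family member (14.6 to 5.04 FPKM, -1.37), TWNK, the mitochondrial helicase (9.51 to 3.31 FPKM, -1.29), and PRORP, the nuclease subunit of RNase P, which overlaps another gene (7.39 to 2.55 FPKM, -1.24). TFAM, which packages mitochondrial DNA, stood at 13.6 and 9.57 FPKM (-0.46), and POLRMT, the mitochondrial RNA polymerase, at 26.3 and 24.6 FPKM (-0.09). Of 17 mitochondrial aminoacyl-tRNA synthetase genes 4 fell, against 7.14% of all members, led by PARS2 (4.15 to 0.311 FPKM, -1.97). None of 20 cytosolic ones did. None of 46 complex I genes and none of 64 genes of complexes II to V passed 2-fold in either direction, with medians of 0.20 and 0.27. Of 78 mitochondrial ribosomal protein genes 2 fell, a smaller share than the 7.14% of all members, MRPS18A and MRPL16 (-1.22 and -1.08).

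Ribosome assembly and ribosomal proteins lay on opposite sides. Of 29 nucleolar genes 5 fell and 1 rose, against 7.14% lower and 3.01% higher over all members, with a median of -0.55. POLR1B and POLR1A, the large subunits of RNA polymerase I, fell from 8.58 to 2.55 FPKM (-1.43) and from 5.09 to 1.74 FPKM (-1.15). NOP58 and NOP56, core proteins of box C/D small nucleolar RNPs, fell by 1.23 and 1.15 on the log2 scale, and both overlap the small nucleolar RNA genes in their introns. None of 79 cytosolic ribosomal protein genes passed 2-fold, but 78 had a positive ratio, and their median was 0.47 (between 0.30 and 0.68 under the other scalings and with the GC and length trend removed). RPS27 had the largest of these ratios, at 150 and 261 FPKM (0.80).

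Splicing regulators moved in both directions. Of 24 SR protein and CLK kinase genes 4 fell and 2 rose, against 7.14% lower and 3.01% higher over all members. CLK1, a kinase of SR proteins that overlaps another gene, rose from 4.11 to 24.9 FPKM (2.34), while SRSF1, which overlaps another gene, SRSF3 and TRA2B fell from 38.6 to 16.7 FPKM, from 37.0 to 16.4 FPKM and from 9.88 to 3.83 FPKM. In the list around P-TEFb and 7SK 1 of 24 genes fell, a smaller share than the 7.14% of all members. It was MEPCE, the 7SK capping enzyme, which overlaps another gene (22.5 to 5.92 FPKM, -1.76). HEXIM1, the inhibitor that 7SK carries, stood at 6.00 and 6.19 FPKM (0.04).

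**Figure D5:**
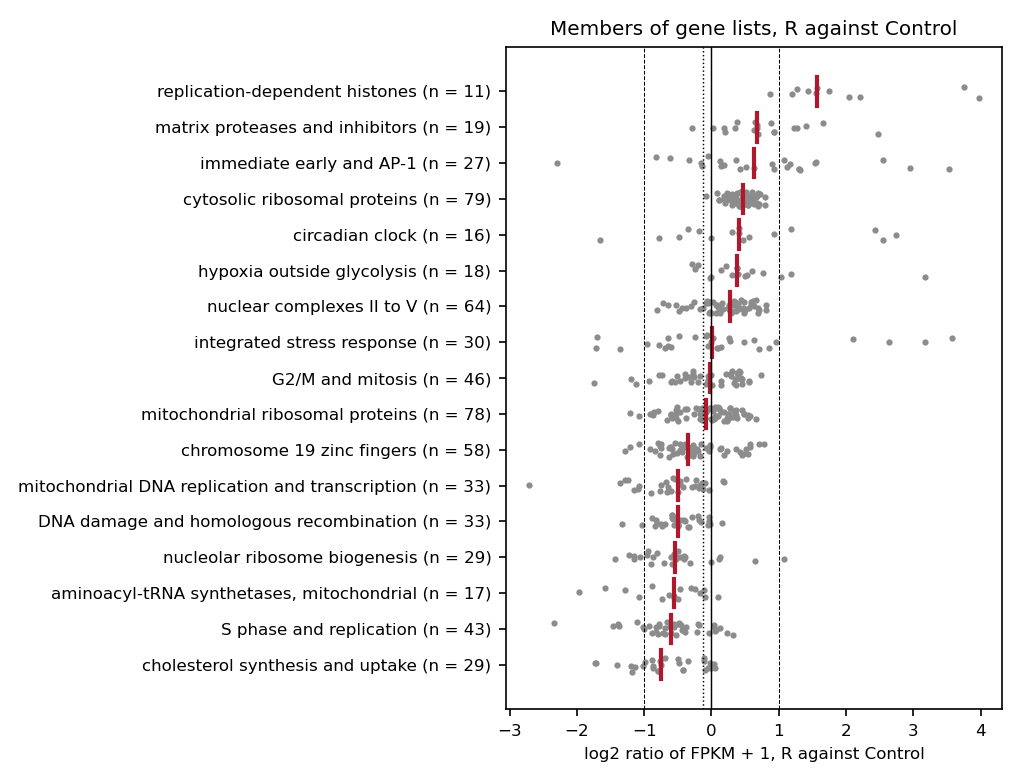
Log2 ratio of FPKM + 1 in R against Control for the members of the gene lists named on the vertical axis, with the list median as a red bar, 2-fold as dashed lines and the median of all members (-0.12) as a dotted line. Matrix proteases and immediate early genes have medians of 0.68 and 0.63, and S phase and cholesterol genes of -0.60 and -0.75. The histone median of 1.57 rests mostly on genes that met the minimum only through R, and it is 0.30 with all histone genes above 0 FPKM.

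The other pairs that differ by R gave the following values for the same genes. Of the 355 genes that were higher in R against Control 192 (54.1%) were also at least 2-fold higher in TR against T, where 6.17% of the members were, and 62 (17.5%) in GR against G, where 1.29% were. Of the 841 lower genes 348 (41.4%) were at least 2-fold lower in TR against T, where 10.7% of the members were, and 61 (7.25%) in GR against G, where 1.56% were. In all 3 pairs 54 genes were higher and 47 lower. Across the 11782 genes, which are not independent replicates, Pearson's r of the log2 ratios was 0.61 with TR against T and 0.42 with GR against G. Some lists differed in size between the pairs. The S phase median was -0.60 in R against Control, 0.27 in TR against T and -0.42 in GR against G, and that of the G2/M genes was -0.03, 1.42 and 0.47. The cholesterol list had -0.75, -0.10 and -0.58, the immediate early list 0.63, 0.93 and 0.32, and the mitochondrial gene expression list -0.49, -0.71 and -0.30. These differences between pairs were not tested.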

How the data were processed

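Per the labels' protocols, RNA of 6 cultures was captured on oligo(dT), the second strand was marked with dUTP, and pairs of 150 bases were read. The submitters' processing notes list DESeq2 and edgeR, StringTie 2.1.6, HISAT2 2.2.1 and cutadapt 1.9, with no roles. The genome build and the handling of overlapping or repeated genes, not given in the sources used here, remain unknown. The deposited table gives a whole-number read count and an FPKM per gene and library, per the file headers. The authors' FPKM values were used as deposited. FPKM per count was 0.948 to 0.990 times as large in R as in Control. Columns left unused: 0.

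Log2 ratios of FPKM + 1 (pseudocount 1) were taken over nuclear genes reaching 1 FPKM in R or Control, with Python 3.11.15, pandas 2.3.3 and scipy 1.17.1. Groups follow the sample titles, 1 library each, so no test was run, and p-values are not given. The members and the gene lists were chosen with earlier results of these data known. Named genes have an FPKM of at least 5 in the higher of the pair, a symbol of their own and no overlap on the same strand, and are the 15 highest and 15 lowest ratios. Added to these are up to 4 members per list with the largest ratio, a few genes of interest, those next to the threshold and the 10 most abundant in Control. List members that overlap another gene on the same strand, 3495 among the members, are named as such and are uncertain. For exons, length and GC content GENCODE v29 was used, which holds 92.6% of all gene identifiers and 97.7% of the members. Coordinates are those of the table, which overlap GENCODE v29 on GRCh38 for 99.96% of all genes with a shared identifier, members or not. Alternatives changed the pseudocount, the minimum, the scaling (TMM in edgeR 4.0.16 under R 4.3.3), the GC and length trend and the overlapping genes. In Control a count of 0 limits a gene's share to 3.7e-06% (3 counts), and intervals (95%, exact) and floors cover counting error only. The step was checked on simulated counts.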

Additional observations from a re-analysis of the deposited data

Results flagged for a closer look

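Of the genes that were higher in R against Control 6 were at least 2-fold lower in TR against T, and of the lower genes 10 were at least 2-fold higher there, differences that were not tested. Most of them overlap another gene on the same strand. Those with an FPKM of at least 5 in R or Control, a symbol of their own and no such overlap are 5, given here. TUBB4B, a beta tubulin, took 245, 76.1, 55.9, 164, 156 and 301 FPKM in Control, R, T, TR, G and GR, and its log2 ratio was -1.68 in R against Control and 1.54 in TR against T. MKI67, the proliferation marker Ki-67, took 18.0, 7.69, 3.95, 9.15, 23.1 and 24.2 FPKM, with -1.13 and 1.04. In both genes T without R was the lowest library, and R and TR lay between it and Control. MARCHF4, a ubiquitin ligase, had -1.14 and 1.18, with 4.02 FPKM in T against 16.7 in Control. The antisense gene TUBA1B-AS1 had -1.73 and 1.76, and the ribosomal protein pseudogene RPS26P6, whose reads are uncertain, -1.81 and 1.01.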

How the results depend on the processing

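With 1 library per group no replicate could be left out. No paired analysis was possible because R and Control have 1 library each and so form 1 pair. A fit of R over the 3 pairs would address R across all backgrounds rather than R alone and was not run. The 355 higher genes became 605 with a pseudocount of 0.1, 126 with one of 5, 683 with TMM-scaled CPM and 203 without overlapping genes and shared symbols. The 841 lower genes became 1723 and 120 with those pseudocounts and 492 with an FPKM of at least 5. The 65 single-exon genes that were lower became 19 with a pseudocount of 5 and 41 with an FPKM of at least 5, and the 18 higher ones became 9 with a pseudocount of 5. As a share, single-exon genes that were lower ran from 9.90% with a pseudocount of 5, where 1.02% of all members were lower, to 42.7% with one of 0.1, where 14.6% were. Under the other settings the counts stayed within 1.5 times. With a pseudocount of 5, 51.2% of called genes were higher, against 29.7% with 1, and 44.0% with median ratio scaling. Among the list medians 477 values kept their side of 0 and of 2-fold, and 3 turned past 2-fold: Notch, HES and ID genes to 1.29 and fibroblast markers to -2.15 with an FPKM of at least 5, and microRNA host genes to 1.02 without overlapping genes. In these 3 the setting removes members of the list. With a pseudocount of 5 and with an FPKM above 0 in either library, the histone median went from 1.57 to 0.61 and 0.30, and that of microRNA host genes from -1.14 to -0.33 and -0.03. In 3 cases a median passed 2-fold, that of immediate early genes at 1.17 with TMM-scaled CPM and that of aryl hydrocarbon receptor targets at 1.04 with TMM-scaled CPM and 1.45 without overlapping genes. A further 34 values, from 21 lists, changed sign within 2-fold, among them chromosome 19 zinc fingers from -0.34 to 0.45 with an FPKM of at least 5. CDKN1A passed 2-fold with a pseudocount of 0.1 (1.10) and with TMM-scaled CPM (1.20). No named gene that passed 2-fold changed direction under an alternative. Low genes are limited by depth, since a pseudocount of 1 hides changes among them.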

Other observations

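Noncoding genes shared some of the differences. Of 220 long intergenic noncoding genes by the reference's class 36 were at least 2-fold lower (16.4%, against 7.14% of all members) and 6 higher (2.73%, against 3.01%). Of 7 microRNA host genes that met the minimum 4 fell and 1 rose, among them MIR503HG (11.3 to 1.26 FPKM, log2 ratio -2.45) and MIR222HG (6.19 to 1.41 FPKM, -1.58), both of which overlap the microRNA genes they carry. In TR against T these had -3.14 and -1.68, and in GR against G -1.19 and -1.16. Of 40 readthrough genes, which join neighbouring genes into a transcript and share their exons, 8 were higher, against 3.01% of all members. A further 3 were lower, a share near the 7.14% of all members. Of the 8, TMEM276-ZFTRAF1 was below 1 FPKM in Control and could pass only through R, so it adds no weight. The count of 8 was not split by level in Control. SENP3-EIF4A1 took 8.55, 51.1, 40.6, 6.27, 41.8 and 11.1 FPKM in Control, R, T, TR, G and GR, so it was high in R, T and G. TMEM276-ZFTRAF1 took 0.0103, 4.33, 1.89, 0.427, 0.127 and 1.19 FPKM. How reads of such genes were divided by the authors was not given, so these values are uncertain.

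Transcription factor families in the authors' annotation differed in their balance. Of 281 C2H2 zinc finger genes 34 fell and 4 rose, with a median of -0.42, and of 35 ZBTB genes 5 fell and 1 rose. Of 38 bZIP genes 5 rose and 1 fell, with a median of 0.20, and of 40 bHLH genes 6 rose and 4 fell. Over all 795 genes with a family 28 rose and 72 fell, with a median of -0.29. In the nuclear hormone receptor family labelled THR-like, 2 of 11 rose and none fell.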
